A study of Mus musculus with 10 samples.

Results

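TREM receptors and the small adaptors that pass on their signals were examined in mouse peritoneal lavage cells during sepsis. The genes were taken by name from the deposited expression table. They were Trem1, Trem2, Trem3, Treml2 and Treml4, which encode receptors, and Tyrobp and Hcst, which encode the adaptors DAP12 and DAP10. All 7 were found among the 34745 genes of the table, and all 7 were among the 12264 genes that passed the filter on low counts and were tested. The mice had cecal ligation and puncture, a surgical model in which gut bacteria leak into the abdomen, and the cells washed out of the cavity were sequenced as poly(A) RNA. The 5 AX libraries were read as amlexanox and the 5 NC libraries as vehicle, because the series compares those treatments, although the labels spell out neither abbreviation. Amlexanox is an anti-inflammatory small molecule that inhibits the kinases TBK1 and IKKε. The sources used here do not give strain, age, dose or time after surgery. They also do not say that each library came from its own animal, so the spread behind the p-values may be technical.

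TREM receptors are immunoglobulin-like proteins of myeloid cells whose short tails cannot signal alone. A charged residue in the membrane pairs most of them with DAP12, whose tail carries an immunoreceptor tyrosine-based activation motif, or ITAM. Src-family kinases phosphorylate the ITAM, the kinase SYK binds it, and the signal runs on through phospholipase Cγ2 and CARD9. TREM-1 on neutrophils and monocytes is known for amplifying Toll-like receptor responses in sepsis, and TREM-2 on macrophages for sensing lipids and for restraining inflammatory cytokines. DAP10 works differently, because its tail holds a motif that recruits phosphatidylinositol 3-kinase in place of an ITAM.

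The coding sequences of the signalling tails are shown because each adaptor signals through the motif in its tail. Capitals mark the codons of tyrosine and of the leucine or methionine that completes each motif, and 2 further codons stand at either end.
Tyrobp: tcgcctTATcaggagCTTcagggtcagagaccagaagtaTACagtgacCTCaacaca
Hcst: agagtcTACatcaacATGcctggc
The Tyrobp stretch is joined over introns within chr7:30415664-30417388 on the plus strand, and the Hcst stretch lies at chr7:30417815-30417838 on the minus strand (mm10, transcripts Tyrobp-201 and Hcst-201 of GENCODE M21). The ITAM was searched as tyrosine, any 2 residues, leucine or isoleucine, any 6 to 8 residues, and the same tyrosine unit again. Among the 7 genes it matched in Tyrobp alone, and it matched 2.88% of 21806 mouse genes with a coding sequence. Hcst held no such match, so the name ITAM adaptor applies to Tyrobp and not to Hcst. The shorter pattern of tyrosine, any 2 residues and methionine occurred in Hcst, Trem3 and Treml2, and in 24.7% of all genes. Tyrobp encodes 114 amino acids and Hcst 79, against 183 to 329 for the receptors.

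The receptors lie in a cluster on chromosome 17 of mm10, all on the plus strand. In the order of the chromosome they are Trem1 (ENSMUSG00000042265, 48232768 to 48246924), Trem3 (ENSMUSG00000041754, 48247777 to 48258841), Treml4 (ENSMUSG00000051682, 48264295 to 48275360), Treml2 (ENSMUSG00000071068, 48300038 to 48312534) and Trem2 (ENSMUSG00000023992, 48346401 to 48354147). Tyrobp (ENSMUSG00000030579, chromosome 7, 30413788 to 30417577, plus strand) and Hcst (ENSMUSG00000064109, 30417717 to 30419854, minus strand) point at each other with 139 bases between their ends. Trem1 overlaps a processed pseudogene on the opposite strand, AC241601.2, in GENCODE M21. The sources do not say whether counting used strand, so reads in that overlap cannot be assigned with certainty.

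Total counts ran from 10221170 to 13806885 per library. AX 6 and NC 1 stood apart from the rest. Levels below are counts scaled to library size with TMM, in CPM. For 13 markers of the mesothelium, which lines the cavity, the summed level was 2620 CPM in AX 6 and 1100 in NC 1 (1099.8), against 126 to 380 (379.6) in the other AX and 121 to 345 in the other NC libraries. The summed level of 17 monocyte and small macrophage markers was 1526 CPM in AX 6 and 1538 in NC 1, the lowest 2 of the 10, against 2752 to 3716 in the other AX and 2479 to 3914 in the other NC libraries. Bulk libraries cannot separate fewer cells of a type from less RNA per cell.

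None of the 7 genes differed between AX and NC beyond the spread between libraries. With the quasi-likelihood test of edgeR and Benjamini-Hochberg adjustment over all genes, 0 of 7 passed a threshold of 0.05 (adjusted p = 0.9999 for each), while 0.0% of the 12264 genes passed. At an unadjusted p under 0.05 there were 0 of the 7 genes against 0.921% of all genes, and DESeq2 and limma-voom also called 0 genes of the whole table (193 and 132 at an unadjusted p under 0.05). The groups overlapped in CPM for every one of the 7, and 0.139% of all genes had groups that did not overlap. Fitted values were lower in AX for 5 genes and higher for 2, with a median log2 fold change of -0.10, beside 0.02 over all genes tested. Errors are SDs of 5 libraries unless said otherwise, and a fold change is AX over NC.

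**Figure D1:**
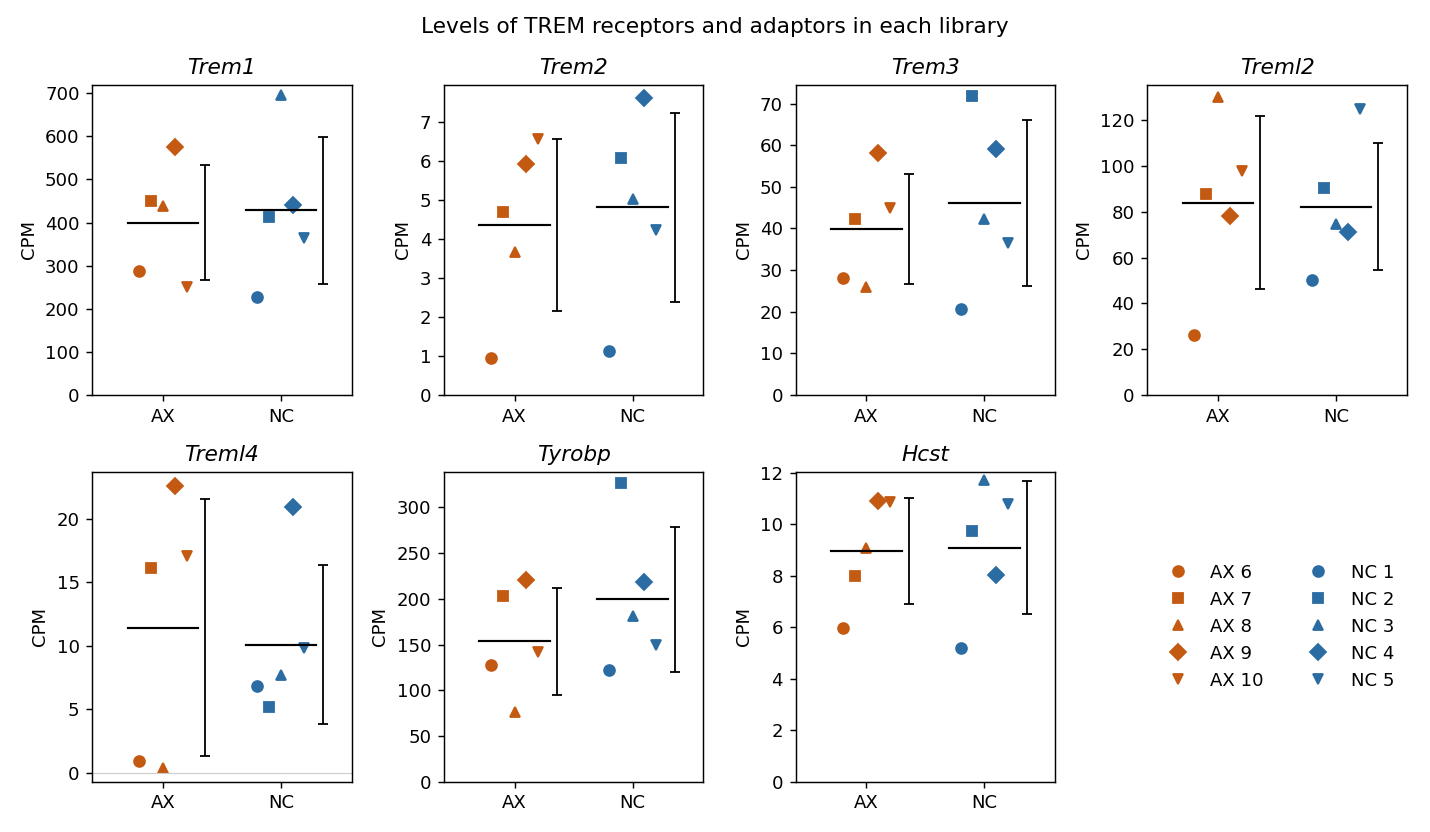
Levels of the 7 genes in CPM (vertical axes) in each AX and NC library; the horizontal line is the group mean, the bar beside it 1 SD, and each symbol a library. The groups overlap in every panel, and AX 6 and NC 1 (circles) sit in the lower part of both groups.

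**Figure D2:**
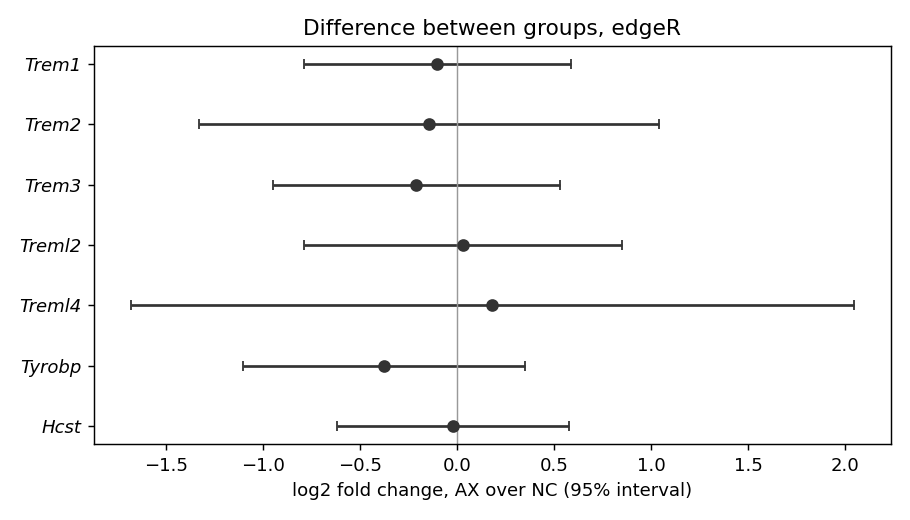
Log2 fold change of AX over NC for each gene with a 95% interval derived from the edgeR test, 5 libraries in each group. Every interval includes 0; that of Treml4, from -1.68 to 2.05, is the widest and that of Hcst, from -0.62 to 0.58, the narrowest.

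Trem1, the sepsis amplifier, was the most heavily counted of the 7, with 2642 to 8777 reads per library. It had 286, 449.9, 437, 576 and 250.01 CPM in AX 6, AX 7, AX 8, AX 9 and AX 10, against 228, 414, 696, 441 and 365 CPM in NC 1, NC 2, NC 3, NC 4 and NC 5. Its level was high in NC 3 and AX 9 and low in NC 1, AX 10 and AX 6, so that highs and lows fell in both groups. The means were 399.95 ± 133 CPM in AX against 429 ± 170.4 CPM in NC (n = 5 each). The log2 fold change of -0.10 ± 0.31 (SE) had a 95% interval from -0.79 to 0.59, or folds from 0.579 to 1.503, and permuting the mean log2 level over libraries (exact, two-sided) gave p = 0.833. The smallest p that 5 against 5 libraries allow is 0.00794. The sign turned without NC 3 (0.14) or AX 10 (0.03).

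Trem3 lies next to Trem1 and encodes a second DAP12-linked receptor that is active in mouse, whereas the human copy is a pseudogene. It had 28.2, 42.3, 25.9, 58.02 and 44.9 CPM in AX 6 to AX 10, against 20.7, 71.9, 42.2, 59.1 and 36.4 CPM in NC 1 to NC 5. NC 2 was highest and NC 1 lowest, both in the same group, and all AX values lay between them. Means were 39.9 ± 13.2 CPM in AX against 46.1 ± 19.9 CPM in NC, with a log2 fold change of -0.21 ± 0.34 (SE) and p = 0.69 by exact permutation (n = 5 each). Without NC 2 the log2 fold change was 0.01.

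Trem2, the lipid-sensing receptor, was near the lower end of detection, with 11 to 95 reads per library. It had 0.954, 4.68, 3.65, 5.91 and 6.57 CPM in AX 6 to AX 10, against 1.12, 6.08, 5.02, 7.61 and 4.23 CPM in NC 1 to NC 5. The very low libraries were AX 6 and NC 1, 1 in each group, and the other 8 lay between 3.65 and 7.61 CPM. Means were 4.35 ± 2.21 CPM in AX against 4.81 ± 2.42 CPM in NC, and without AX 6 and NC 1 they were 5.20 ± 1.30 CPM in AX against 5.74 ± 1.46 CPM in NC (n = 4 each). The log2 fold change of -0.14 ± 0.54 (SE) had an interval from -1.33 to 1.04 with all libraries and was -0.14 without both, with p = 0.714 by exact permutation over the 10. Leaving out a single library turned the sign where that library was AX 6 (0.11) or NC 4 (0.07).

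Treml2 encodes TLT-2, a receptor of neutrophils, macrophages and B cells. It had 26.2, 87.6, 130.3, 78.2 and 97.8 CPM in AX 6 to AX 10, against 50.2, 90.5, 74.7, 71.1 and 124.9 CPM in NC 1 to NC 5. AX held both the lowest and the highest library, AX 6 and AX 8. Means were nearly equal at 84.03 ± 37.8 CPM in AX against 82.3 ± 27.8 CPM in NC, with a log2 fold change of 0.03 ± 0.37 (SE) and p = 0.913 by exact permutation. The mean log2 level had the other sign, at -0.08. The fitted sign turned without AX 8, AX 10, NC 1, NC 3 or NC 4 (-0.18, -0.03, -0.11, -0.00 and -0.03), and scaling by total counts gave -0.02.

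Treml4, a receptor that binds dying cells and can also pair with DAP12, varied most among the 7 genes. It had 0.954, 16.1, 0.418, 22.6 and 17.03 CPM in AX 6 to AX 10, against 6.82, 5.19, 7.72, 20.9 and 9.80 CPM in NC 1 to NC 5. AX libraries lay at the extremes: AX 9, AX 10 and AX 7 were 3 of the 4 highest, while AX 8 and AX 6, with 4 and 11 reads, were the lowest 2. The highest library was 54.1 times the lowest, against 2.26 to 7.98 times for the other members. The SD of its log2 level over 10 libraries, 1.88, exceeded that of 97.7% of all genes tested. Group means were 11.4 ± 10.1 CPM in AX against 10.1 ± 6.26 CPM in NC, with medians of 16.1 CPM in AX against 7.72 CPM in NC. The direction depended on the scale: the edgeR log2 fold change, which follows arithmetic means, was 0.18 ± 0.85 (SE), while the mean log2 level was lower in AX by -0.86 (p = 0.484, exact permutation). Without AX 9 or AX 10 the edgeR value was -0.22 or -0.00.

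Tyrobp, the DAP12 adaptor, had the largest edgeR log2 fold change among the 7 in size, within the spread between libraries. With limma-voom that of Treml4 was larger, at -0.70 against -0.39 for Tyrobp. It had 128, 203, 76.02, 220.2 and 142 CPM in AX 6 to AX 10, against 122, 327, 181, 218 and 149 CPM in NC 1 to NC 5. AX 8 was lowest and NC 2 highest, and the remaining 4 AX values fell within the NC range. The share of counts from mitochondrial genes was 18.6% in AX 8 and 4.47% in NC 2, within a range of 6.35% to 20.1% in AX and 4.47% to 15.7% in NC, and its part in the Tyrobp level was not tested. Means were 154 ± 58.6 CPM in AX against 199 ± 79.7 CPM in NC. The log2 fold change of -0.37 ± 0.33 (SE) had an interval from -1.10 to 0.35, or folds from 0.466 to 1.27, and exact permutation gave p = 0.349 (n = 5 each). Its sign held when each library was left out in turn, with values from -0.54 to -0.13 (-0.125 without NC 2).

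Hcst, the DAP10 adaptor, varied least. It had 5.98, 7.997, 9.08, 10.9 and 10.9 CPM in AX 6 to AX 10, against 5.18, 9.74, 11.7, 8.02 and 10.8 CPM in NC 1 to NC 5. AX 6 and NC 1 were the lowest and the other 8 libraries spanned 7.997 to 11.7 CPM. Means were 8.97 ± 2.07 CPM in AX against 9.09 ± 2.58 CPM in NC, with a log2 fold change of -0.02 ± 0.27 (SE), an interval from -0.62 to 0.58 and p = 0.984 by exact permutation. The mean log2 level of Hcst, which the permutation tests, had the other sign, at 0.00156. The SD of its log2 level, 0.392, exceeded that of 34.8% of genes tested. Being so near 0, the sign turned on leaving out any of AX 6, AX 7, NC 2, NC 3 and NC 5 (0.10, 0.02, 0.01, 0.09 and 0.05).

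The same libraries were low for many of the 7 genes. AX 6 was among the lowest 3 libraries for 7 of 7 genes and NC 1 for 6 of 7, Treml4 being the exception in NC 1. AX 8 was among the lowest 3 for 4 genes (Trem2, Trem3, Treml4 and Tyrobp), was highest for Treml2 and stood at 437 CPM for Trem1, above the AX mean. AX 9 was among the highest 3 for 5 genes. AX 6 and NC 1 were also the libraries with the highest mesothelial and lowest monocyte marker levels, and the part of either in the low TREM levels was not tested.

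**Figure D3:**
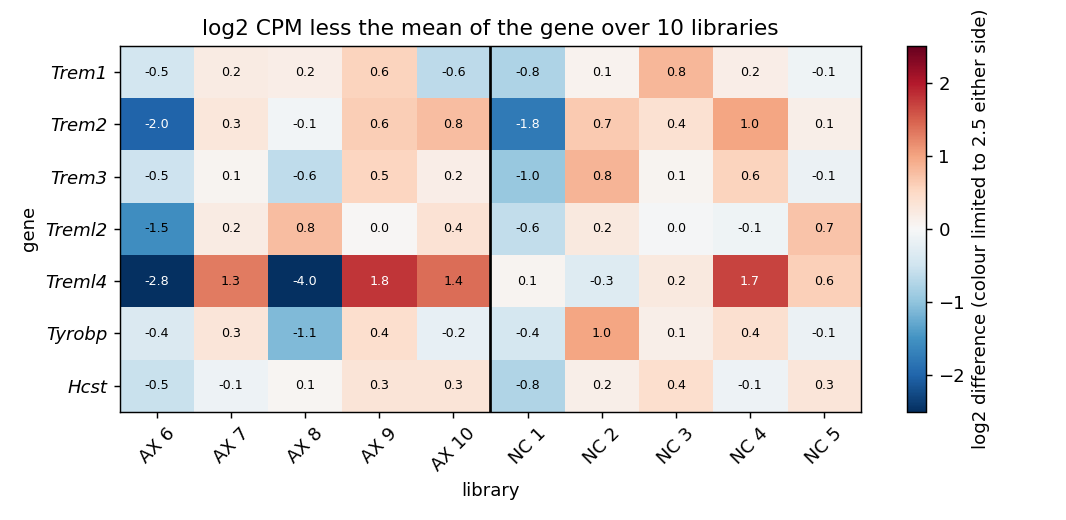
Log2 CPM of each gene (rows) in each library (columns, AX left of the line and NC right), less the mean of the gene over the 10 libraries; colour is limited to 2.5 either side of 0 and the cells print the values. AX 6 and NC 1 are blue in nearly every row, AX 8 is mixed, and Treml4 has the widest range.

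Levels of different genes were compared per length, with the FPKM values that the authors deposited. Tyrobp was highest at 321 ± 151 FPKM, followed by Trem1 at 84.8 ± 29.95, Trem3 at 43.98 ± 19.5, Hcst at 20.6 ± 5.25, Treml2 at 18.4 ± 6.39, Treml4 at 3.12 ± 2.37 and Trem2 at 0.754 ± 0.377 FPKM (SD, n = 10 libraries). The DAP12 adaptor mRNA thus stood above that of each receptor in the mean. Tyrobp exceeded Trem1 within 10 of 10 libraries, by 1.86 on the log2 scale, and Trem1 exceeded Trem3 and Trem3 exceeded Hcst in 10 of 10, by 0.99 and 1.01. Each of these steps gave an exact sign-flip permutation p of 0.00195, the smallest that 10 libraries allow, and p = 0.00293 adjusted over the 6 neighbouring pairs. Hcst and Treml2 did not differ beyond their spread (0.24 on the log2 scale, 7 of 10 libraries, adjusted exact p = 0.15). Treml2 exceeded Treml4 in 10 of 10 libraries by 3.20 (adjusted exact p = 0.00293).

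The sizes of the steps depended on the gene length used, and for the last, Treml4 over Trem2, so did the call. It was 1.55 on the log2 scale in FPKM, in 9 of 10 libraries, with adjusted exact p = 0.0258. The deposited table counted a length of 6119 bases for Trem2, where the longest coding transcript, Trem2-201, has 1088, and of 3536 bases for Treml4, where Treml4-201 has 1744. Per kilobase of the longest coding transcript, Trem2 stood at 4.21 ± 2.02 and Treml4 at 6.16 ± 4.56 CPM, and their mean log2 levels differed by 0.08 (6 of 10 libraries, adjusted exact p = 0.898). Hcst and Treml2 also drew level there, at 20.4 ± 4.996 and 20.9 ± 7.86 CPM per kilobase, with Hcst higher in 5 of 10 libraries. The other 4 steps kept their direction and their call but not their size. Tyrobp exceeded Trem1 by 1.07 in 9 of 10 libraries, Trem1 exceeded Trem3 by 1.70 and Treml2 exceeded Treml4 by 2.36, each in 10 of 10, and Trem3 exceeded Hcst by 1.03 on the log2 scale.

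**Figure D4:**
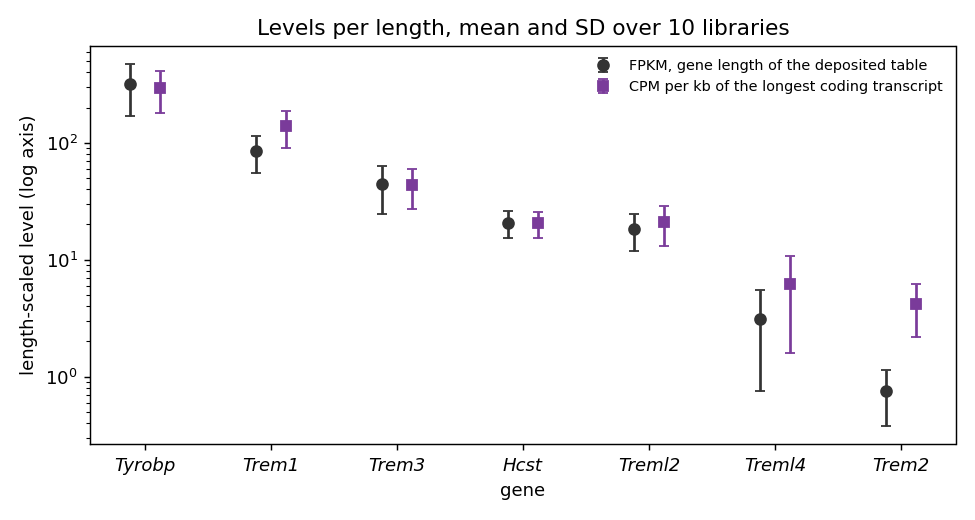
Length-scaled level (log axis) of the 7 genes, mean and SD over 10 libraries, in deposited FPKM (circles) and in CPM per kilobase of the longest coding transcript (squares). Tyrobp leads on both scales at 321 FPKM and 296 CPM per kilobase, and Trem2 moves most, from 0.754 FPKM to 4.21 CPM per kilobase.

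Ratios between members within a library do not depend on its scaling. The ratio of Trem1 to Trem2 reads was 300.4, 96.03, 120 (119.7), 97.5 and 38.05 in AX 6 to AX 10, against 203, 68.04, 139, 57.9 and 86.3 in NC 1 to NC 5. It was highest in AX 6 and NC 1, where Trem2 was lowest. Its log2 mean was 6.69 ± 1.04 in AX and 6.61 ± 0.73 in NC, a difference of 0.08 with p = 0.913 by exact permutation (n = 5 each, smallest possible 0.00794). The ratio of Trem1 to Trem3 was 3.32 ± 0.57 in AX and 3.25 ± 0.58 in NC on the log2 scale (difference 0.07, exact permutation p = 0.881). The ratio of Tyrobp to Hcst was 21.3, 25.4, 8.37, 20.2 and 13.04 in AX 6 to AX 10, against 23.5, 33.5, 15.4, 27.2 and 13.8 in NC 1 to NC 5, lowest in AX 8 and highest in NC 2. On the log2 scale it was 4.03 ± 0.65 in AX and 4.42 ± 0.54 in NC, a difference of -0.39 (exact permutation p = 0.333, n = 5 each). Adjusted over the 3 ratios, p was 0.913 for each. The small differences of the Trem1 ratios changed sign in some leave-one-out comparisons, for Trem1 to Trem2 without AX 6, NC 2 or NC 4 (-0.29, -0.05 and -0.11) and for Trem1 to Trem3 without AX 8, NC 2 or NC 4 (-0.11, -0.11 and -0.01).

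Relations over the 10 libraries were examined for 21 pairs of members and for 21 pairings of a member with the neutrophil, large peritoneal macrophage or monocyte marker list. Trem1 followed the neutrophil markers, with Pearson r = 0.895 (permutation p = 0.00062, adjusted p = 0.0084) and Spearman rho = 0.818 (permutation p = 0.0053, adjusted p = 0.0371). Without NC 1 and NC 3, the libraries farthest from the median of the list, r was 0.764 (permutation p = 0.0275, adjusted p = 0.305), and without AX 6 and NC 1 it was 0.824 (permutation p = 0.0159, adjusted p = 0.324). The relation thus did not pass after adjustment over 8 libraries, whichever of these pairs was left out. After the group means were subtracted r was 0.895. The list level is a mean over 19 genes such as S100a9, at 4767 ± 1816 CPM in AX against 4050 ± 1004 CPM (4049.7) in NC, and Ly6g, a defining marker of mouse neutrophils, at 25.4 ± 10.9 CPM in AX against 27.3 ± 12.4 CPM in NC.

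Trem2 and Trem3 were set beside the monocyte and small macrophage list. AX 6 and NC 1 formed a cluster of their own, low in that list and in Trem2, so the relation is given over the other 8 libraries. There r was 0.674 for Trem2 (permutation p = 0.0688, rho = 0.691, permutation p = 0.07) and 0.753 for Trem3 (permutation p = 0.0309, rho = 0.833, permutation p = 0.015), and neither passed after adjustment over the 21 pairings (adjusted p = 0.482 and 0.324). Of all 21 pairings over 10 libraries, those of Trem1 with neutrophil markers and of Trem2 and Trem3 with monocyte markers passed, and the other 18 did not. Those of Trem2 and Trem3 passed only with AX 6 and NC 1 included. Whether the relations of 1 gene to different lists differ was not tested.

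Among the members, Trem3 followed Tyrobp, the adaptor its product binds, with r = 0.87 (permutation p = 0.00092, adjusted p = 0.0193) and rho = 0.903 (permutation p = 0.00095, adjusted p = 0.0139). Without AX 8 and NC 2, the libraries farthest from the median of Tyrobp, r was 0.868 (permutation p = 0.00239, adjusted p = 0.0502), just past the threshold. Without AX 6 and NC 1 it was 0.935 (permutation p = 0.00141, adjusted p = 0.0296). Spearman rho without AX 6 and NC 1 was 0.833 (permutation p = 0.01535, adjusted p = 0.161) and did not pass after adjustment. Trem2 and Trem3 also moved together over 10 libraries (r = 0.813, permutation p = 0.00187, adjusted p = 0.0196; rho = 0.891, permutation p = 0.00132). That relation gave r = 0.742 without NC 1 and NC 2 (adjusted p = 0.103) and r = 0.831 without AX 6 and NC 1 (adjusted p = 0.116). Its r stayed about as large over these 8 libraries, without passing after adjustment. Tyrobp and Hcst, neighbours on the chromosome, gave r = 0.293 (permutation p = 0.408, adjusted p = 0.489; rho = 0.382, permutation p = 0.279), and r = -0.05 without AX 6 and NC 1. The other 19 of the 21 pairs of members did not pass. They include Tyrobp with each of the other receptors, at r = 0.387 for Trem1, 0.521 for Trem2, 0.018 for Treml2 and 0.643 for Treml4. Without AX 8 and NC 2 these were 0.818, 0.76, 0.416 and 0.672 (adjusted permutation p = 0.1025, 0.1025, 0.687 and 0.139). Without AX 6 and NC 1 they were 0.218, 0.644, -0.697 and 0.646. Whether they differ from the relation of Trem3 to Tyrobp was not tested.

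**Figure D5:**
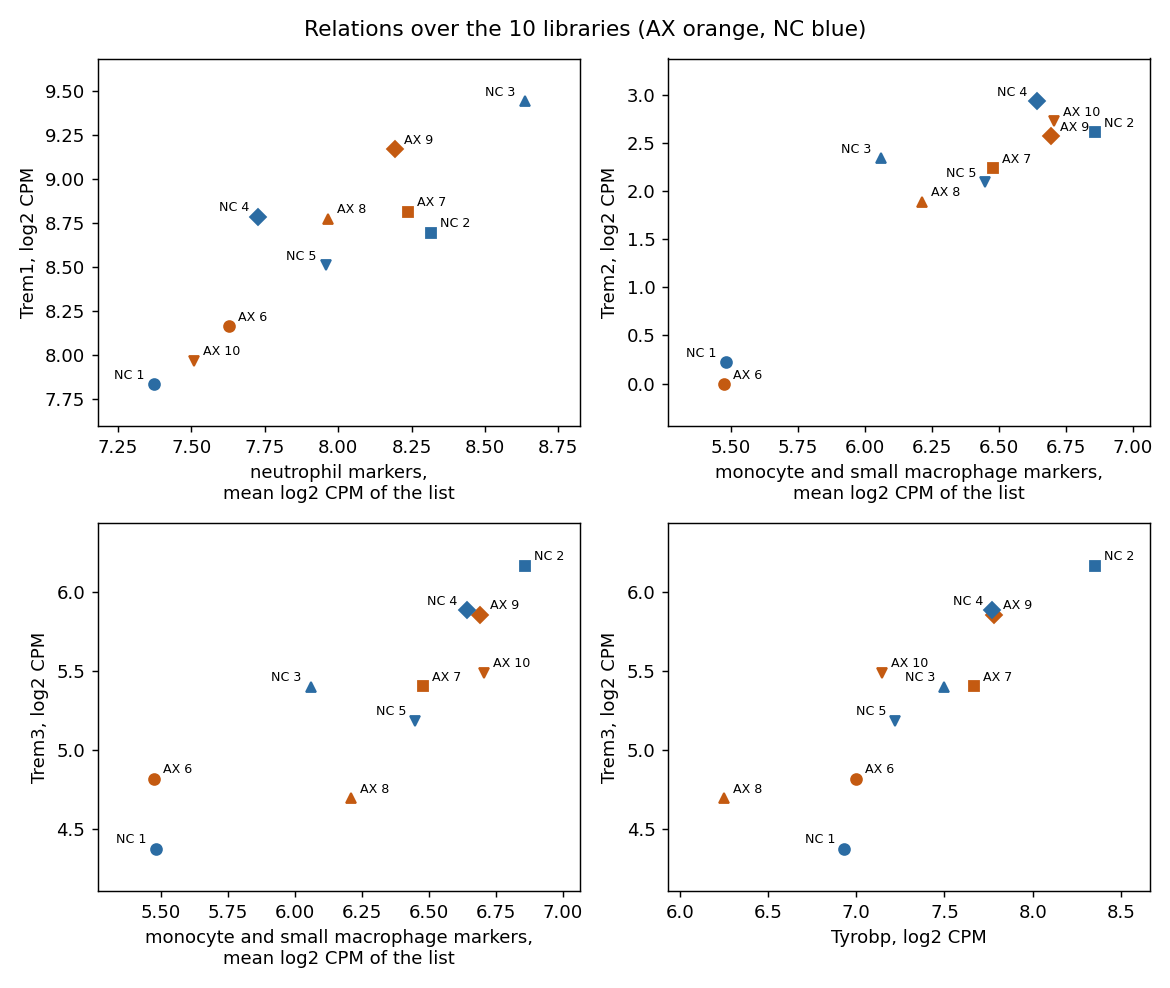
Each point is a library; vertical axes give log2 CPM of Trem1, Trem2 or Trem3, horizontal axes the mean log2 CPM of a marker list or the log2 CPM of Tyrobp. Trem1 climbs along the neutrophil axis (r = 0.895) and Trem3 along Tyrobp (r = 0.87), while AX 6 and NC 1 sit apart at the lower left of the Trem2 panel.

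The genes whose pattern over the 10 libraries was most like each member were found by the root mean square difference of centred log2 CPM. For Trem1 they were Ccr1, a chemokine receptor of neutrophils and monocytes, Mboat7 and Wipi1 (0.19, 0.215 and 0.225, against a median of 0.646 over all genes compared). For Trem3 they were Ncf4, a subunit of the phagocyte NADPH oxidase, Plbd1 and Emb (0.154, 0.155 and 0.178), and Ncf4 also led for Tyrobp (0.17), before Emp3 and the interferon receptor gene Ifnar1 (0.179 and 0.181). For Trem2 they were the inhibitory lectin receptor gene Clec4a2, the complement receptor gene C5ar2 and Ankrd44 (0.266, 0.269 and 0.271, against a median of 1.05). This likeness includes AX 6 and NC 1, where Trem2 lay at -0.004 and 0.221 log2 CPM, against 1.89 to 2.94 in the others. For Treml2 they were Plcl2, Map4k1 and Zfp687 (0.192, 0.195 and 0.2), and for Hcst Gpr108, Man2a1 and the IL-17 receptor gene Il17ra (0.144, 0.148 and 0.152). Treml4, which varied most, had larger differences from all genes, with a median of 1.83. Its nearest genes were Cant1, E2f1 and Vps9d1 at 0.937, 0.994 and 1.03.

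Genes around the receptors were described from fixed lists, without a test of the lists. In none of the lists that follow did a gene pass the adjusted threshold or an unadjusted p of 0.05 with edgeR. Treml1, the TREM-like gene of platelets in the same cluster, had at most 1 read in a library. Among 10 ligands and sheddases, 5 were higher and 5 lower in AX (median log2 fold change 0.01). Pglyrp1, a ligand of TREM-1 stored in neutrophil granules, stood at 140.2 ± 45.9 CPM in AX against 162 ± 46.1 CPM in NC. Clu, a lipid carrier that TREM-2 binds, stood at 89.98 ± 131 CPM in AX against 33.5 ± 28.97 CPM in NC, with 323 CPM in AX 6.

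Other receptors that pair with DAP12 or DAP10 had lower fitted values in AX for 10 of 10 tested genes, with a median of -0.18, beside 5690 of 12264 lower over all genes. Their summed level was 126 (126.5), 312, 112, 357 and 305 CPM in AX 6 to AX 10, against 126 (125.7), 405, 284, 362 and 257 CPM in NC 1 to NC 5. The low libraries were AX 6, AX 8 and NC 1, which were also the lowest 3 for Tyrobp. This was not particular to these receptors. The same 3 libraries had the lowest summed levels of the ITAM signalling genes and of the inhibitory receptors and phosphatases described below. Cd300e, a receptor of monocytes, stood at 1.93 ± 0.998 CPM in AX against 4.29 ± 2.65 CPM in NC (log2 fold change -1.15 ± 0.57, SE), and the inflammatory lectin receptor gene Clec5a at 100.03 ± 64.9 CPM in AX, with 10.1 CPM in AX 8, and 123 ± 40.4 CPM in NC.

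Receptors and chains that signal through other ITAMs were lower in AX for 9 of 12 genes (median -0.14). Clec4e, which encodes the lectin Mincle, stood at 131 ± 34.6 CPM in AX against 189.6 ± 58.95 CPM in NC, with a log2 fold change of -0.54 ± 0.24 (SE) and an unadjusted p of 0.0504 in edgeR (adjusted p = 0.9999). Clec4n, which encodes Dectin-2, stood at 18.1 ± 4.503 CPM in AX against 27.7 ± 9.32 CPM in NC. Signalling genes downstream of the ITAM were lower for 21 of 31 (median -0.09). Inhibitory receptors and phosphatases were lower for 14 of 19 (median -0.07), with Fcgr2b, the inhibitory Fc receptor, at 275 ± 55.05 CPM in AX against 337 ± 112 CPM in NC.

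Genes linked to TREM-2 in lipid-handling phagocytes were lower for 13 of 22 (median -0.07). The cholesterol exporter gene Abcg1 stood at 20.8 ± 11.8 CPM in AX against 11.7 ± 3.67 CPM in NC, and Gpnmb, a glycoprotein of lipid-laden macrophages, at 18.1 ± 6.97 CPM in AX against 27.2 ± 12.3 CPM in NC. Cytokines and chemokines that TREM-1 is known to amplify were higher for 7 and lower for 5 of 12 (median 0.04). Their summed level ranged from 6758 to 45824 CPM in AX and from 12389 to 37757 CPM in NC. The neutrophil chemoattractant gene Cxcl1 was at 8088 CPM (8087.6) in AX 6, with means of 1945 ± 3437 CPM in AX against 712 ± 822 CPM in NC. The lists share some genes with each other and with the marker lists, such as Mmp9, Apoe, Lgals3, Clec7a, Zap70 and Cd247.

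Marker lists were summed to describe the libraries, and such sums do not give cell proportions. Neutrophil markers summed to 11416 to 19459 CPM in AX and 10858 to 22551 CPM in NC, with 7 of 19 genes higher in AX. Large peritoneal macrophage markers summed to 23043 to 39806 CPM in AX and 21096 to 44621 CPM in NC, most of it from the acute-phase gene Saa3 at 28754 ± 7607 CPM in AX against 29315 ± 8722 CPM in NC. In that list 12 of 16 tested genes had higher fitted values in AX and 4 had lower ones (median 0.29). Saa3, Adgre1 and F10 were among the lower. F10 stood at 837 ± 310 CPM in AX against 1254 ± 283 CPM in NC (log2 fold change -0.58 ± 0.28, SE). Adgre1, which encodes F4/80, stood at 68.1 ± 42.2 CPM in AX against 74.01 ± 48.98 CPM in NC. Mesothelial markers were higher in AX for 11 of 11 tested genes (median 1.035), with AX 6 the highest library, while the median summed level was 282 CPM in AX and 289.6 CPM in NC. Platelet markers summed to 161 to 346 CPM in AX and 159.6 to 289 CPM in NC, mostly Pf4, which macrophages also express, while Gp1ba had 0 reads. Summed B cell markers stayed at or below 247 CPM in AX against 245 CPM in NC, dendritic cell markers at or below 183 CPM in AX against 224 CPM in NC, T cell markers at or below 71.4 CPM in AX against 84.4 CPM in NC, mast cell and basophil markers at or below 64.2 CPM in AX against 41.1 CPM in NC, and NK cell markers at or below 29.7 CPM in AX against 29.3 CPM in NC.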

How the data were processed

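Poly(A) RNA reads had been aligned by HISAT2 2.0.4 to mm10, according to the submitters' processing notes; the sources used here name neither the counting tool nor the annotation. The authors deposited raw read counts, which held whole numbers only. The authors also deposited FPKM, which matched each count divided by a fixed gene length and by the column total (largest relative gap 7.81e-05). Every pair of libraries differed beyond sampling noise (chi-square over degrees of freedom 41.8 to 327).

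Counts were fitted in R 4.3.3 with edgeR 4.0.16 (filterByExpr, TMM, quasi-likelihood F test, Benjamini-Hochberg adjustment over all genes, threshold 0.05). SEs were derived approximately, as the size of the log2 fold change divided by the square root of F. Intervals used these SEs with t quantiles. Log2 levels for permutation tests, run in Python 3.11.15, used a pseudocount of 0.5 counts; correlations used 100000 resamples. Alternatives were DESeq2 1.42.0, limma 3.58.1, other scalings, filters, pseudocounts and covariates, and leaving out libraries. The gene-level and likeness steps were tested on simulated data. Sequences and transcript lengths came from GENCODE M21 on the same build.

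The members and gene lists were chosen with earlier results of these data known. By rule, named genes are the members and up to 4 genes of each pathway list with the smallest p. The rule adds the 3 most alike each member (mean log2 CPM of at least 1), the highest markers, Adgre1 and Ly6g. Outside it, Treml1, Rnf24, the overlapping pseudogene and genes that lists share are also named. Gp1ba was named after its values were seen. One gene that the rule names is not reported here. Precision is limited by 5 libraries in each group, and intervals cover these libraries only.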

Additional observations from a re-analysis of the deposited data

How the results depend on the processing

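No paired analysis was possible because the AX and NC libraries carry different replicate numbers. No member passed the adjusted threshold under any alternative run, and the count of genes called over the whole table was 0 in each, except that leaving out 1 library gave 0 to 1 genes; the 1, Rnf24, was called without NC 3 and is no member. Across all alternatives, single libraries left out included, the direction turned under at least 1 for every member except Tyrobp. Trem1 gave 0.0385 with limma-voom and library quality weights and 0.0193 with the neutrophil list as covariate. Treml2 gave -0.0812 with limma-voom, -0.0231 with total count scaling, -0.12 on log2(FPKM + 1) and -0.14 on log2(FPKM + 0.1). Treml4 gave -0.70 with limma-voom, -0.16 on log2(FPKM + 1), -0.71 on log2(FPKM + 0.1) and -0.28 with the macrophage list as covariate. Hcst gave 0.0101 with limma-voom, 0.0203 with quality weights and 0.0782 with the neutrophil list. The causes were not tested. Trem2 could not be fitted on FPKM, where it did not reach 1 FPKM in 5 libraries.

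Leaving out each library in turn gave log2 fold changes from -0.27 to 0.14 for Trem1, -0.40 to 0.11 for Trem2, -0.40 to 0.00856 for Trem3, -0.18 to 0.26 for Treml2, -0.22 to 0.62 for Treml4, -0.54 to -0.13 for Tyrobp (-0.5431 to -0.125) and -0.17 to 0.10 for Hcst. Log2 ratios ranged from -0.29 to 0.44 for Trem1 to Trem2, -0.11 to 0.29 for Trem1 to Trem3 and -0.55 to -0.14 for Tyrobp to Hcst. Length-scaled steps ranged from 1.76 to 2.003 for Tyrobp over Trem1, 0.90 to 1.08 for Trem1 over Trem3, 0.94 to 1.09 for Trem3 over Hcst, 0.13 to 0.32 for Hcst over Treml2, 2.68 to 3.40 for Treml2 over Treml4 and 1.35 to 1.99 for Treml4 over Trem2. The last missed the threshold without AX 7, AX 9 or NC 1 (adjusted exact p = 0.0516 for each), and Hcst over Treml2 passed without AX 8 (adjusted exact p = 0.043). Without scaling by length, Tyrobp over Trem1 was -1.25 and Hcst over Treml2 -3.13, and Treml4 over Trem2 was 0.76 (adjusted exact p = 0.168); with coding transcript lengths it was 0.0813. The alternatives without AX 6 and NC 1 together and with coding transcript lengths were chosen after seeing the data. With 4 to 11 reads in its lowest libraries, Treml4 has little counting precision there.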
